A study of Mus musculus with 6 samples.

Results

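The 44 genes described here encode the machinery that licenses replication origins, fires them and copies DNA at the fork, together with enzymes that supply nucleotides for it. They were taken by name from the deposited table, in which every one of the 44 symbols was found once among the 19630 genes listed. All 44 lay above the minimum mean of 10 scaled counts that left 16674 genes for testing. The table holds RNA-seq of Nes-CFP positive cells, sorted by flow cytometry from the cerebellum of Swiss webster mice of genotype Nes-CFP/+ at postnatal day 5. In 3 libraries the mice had been irradiated at postnatal day 1, and in the other 3, the controls, they had not. Reporter, strain and age at sorting were shared by both groups. The cyan fluorescent reporter follows the *Nes* gene, which neural progenitors and glia use, so the sort holds a mixture of such cells. Libraries held 30986269 to 31070520 reads assigned to listed genes in irradiated and 31130326 to 37067530 in control mice, and values are read counts scaled for this depth (scaled counts). The sources used here state neither the radiation dose nor whether a library held 1 animal or a pool, so the spread between libraries may be partly technical.

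In background terms, an origin is licensed in G1 phase when the origin recognition complex (ORC) with Cdc6 and Cdt1 loads the MCM helicase, a ring of Mcm2 to Mcm7, onto DNA. Geminin, the product of *Gmnn*, holds Cdt1 back outside G1. In S phase the kinase Cdc7 with its activator Dbf4, and then Cdc45 and the GINS complex, turn the ring into a working helicase, behind which the polymerases, the sliding clamp PCNA and its loader follow. Most of these genes are switched on together at the start of S phase by E2F transcription factors, and they are high in dividing progenitors of the neonatal cerebellum.

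The 3 promoters below are shown because they carry the letters of an E2F site in front of genes whose values follow, the helicase genes *Mcm5* and *Mcm6* and the polymerase gene *Pola1*. Each is the 250 bases before the RefSeq start in GRCm38.p6, 5′ to 3′ on the gene's strand, with the motif letters in capitals. *Mcm5* lies at chr8:75109259-75109508 on the plus strand, *Mcm6* at chr1:128359706-128359955 on the minus strand and *Pola1* at chrX:93632156-93632405 on the minus strand.
Mcm5: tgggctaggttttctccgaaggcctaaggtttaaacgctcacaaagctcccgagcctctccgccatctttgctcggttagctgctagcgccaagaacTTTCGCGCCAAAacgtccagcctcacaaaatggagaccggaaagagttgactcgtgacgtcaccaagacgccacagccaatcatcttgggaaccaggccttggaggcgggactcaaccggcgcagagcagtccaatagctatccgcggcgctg
Mcm6: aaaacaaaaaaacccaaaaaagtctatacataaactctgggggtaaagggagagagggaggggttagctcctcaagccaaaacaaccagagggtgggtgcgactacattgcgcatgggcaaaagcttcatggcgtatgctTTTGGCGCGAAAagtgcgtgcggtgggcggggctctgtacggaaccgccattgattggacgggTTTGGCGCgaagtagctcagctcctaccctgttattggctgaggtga
Pola1: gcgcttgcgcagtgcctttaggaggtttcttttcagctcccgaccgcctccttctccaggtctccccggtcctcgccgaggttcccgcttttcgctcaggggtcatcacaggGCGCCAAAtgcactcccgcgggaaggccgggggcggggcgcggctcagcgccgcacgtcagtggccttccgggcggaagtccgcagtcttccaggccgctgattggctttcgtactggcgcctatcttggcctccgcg
The motifs searched were TTTCCCGC, TTTCGCGC, TTTGCCGC and TTTGGCGC on both strands. In *Mcm5* and at the first site of *Mcm6* a match on each strand overlaps to form a run of 12 letters, and *Mcm6* has a further match nearer its start. *Pola1* has 1 match, on the opposite strand. Promoter windows of 300 bases, from 250 before to 50 after the start, were found in RefSeq for 36 of the 44 genes, some with more than 1 start. No window was used for *Mcm4*, *Gmnn*, *Gins1*, *Gins2*, *Gins4*, *Prim2*, *Pole* or *Rfc2*. A motif was present in 14 of 44 windows (31.8%), belonging to 14 genes, against 534 of 14542 windows of the genes tested (3.67%) and 744 of all 32851 windows in the table (2.26%). Median GC content was 59.2% in the windows of the replication genes and 60.7% in those of the genes tested. The match is a description of letters and does not show that a factor was bound in these cells.

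The libraries set cells sorted at postnatal day 5, after irradiation at postnatal day 1, against unirradiated cells of the same age. For the replication genes, no difference between irradiated and control libraries passed the test. Of the 44 genes 0 passed limma-trend at an adjusted p below 0.05 (Benjamini-Hochberg over 16674 genes, two-sided), where 0.054% of all genes did. At an unadjusted p below 0.05 there were 2, *Tyms* and *Pola1*, both higher after irradiation, against 4.5% of the genes tested, or 2.42% in this direction. The lowest limma adjusted p among the 44 was 0.987. With the replicate number as a block 0 of the 44 passed, where 0.15% of all genes did. The lowest adjusted p in that limma fit was 0.430. The fitted level was higher in irradiated libraries for 28 genes and lower for 16, so 63.6% were higher against 49.4% of all genes tested. Log2 fold changes ran from -0.18 to 0.35 with a median of 0.051, beside a median of -0.0028 over all genes tested. A positive value means a higher level after irradiation, and all were fitted to log2 of the scaled count with a pseudocount of 1.

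The 95% limma interval of the difference lay within 1.5-fold in either direction for 42 of the 44 genes, and within 2-fold for all 44. The exceptions to the narrower bound were *Orc1*, with an interval from 0.666 to 1.64-fold, and *Tyms*, from 1.04 to 1.57-fold. The intervals come from the fit without the replicate block, are for each gene on its own and are not widened for their number. They hold for the fit without covariates: with the Y-linked level as a covariate (its values are given with the gene lists) the log2 fold change was -0.57 (SE 0.19) for *Cdt1*, -0.54 (SE 0.25) for *Orc1* and -0.46 (SE 0.14) for *Mcm10*, against -0.033, 0.065 and -0.0041 without it. In the fit without covariates *Cdkn1a*, the gene of the cyclin-dependent kinase inhibitor p21, was higher in irradiated cells by 2.50 on the log2 scale (SE 0.20, limma adjusted p = 0.00372). Its scaled counts were 1469.9, 1843 and 1831 in the irradiated libraries, against 289, 235 and 402 in the control libraries. Sorted cells were measured in bulk, so fewer cells of a type and less RNA per cell cannot be told apart.

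**Figure D1:**
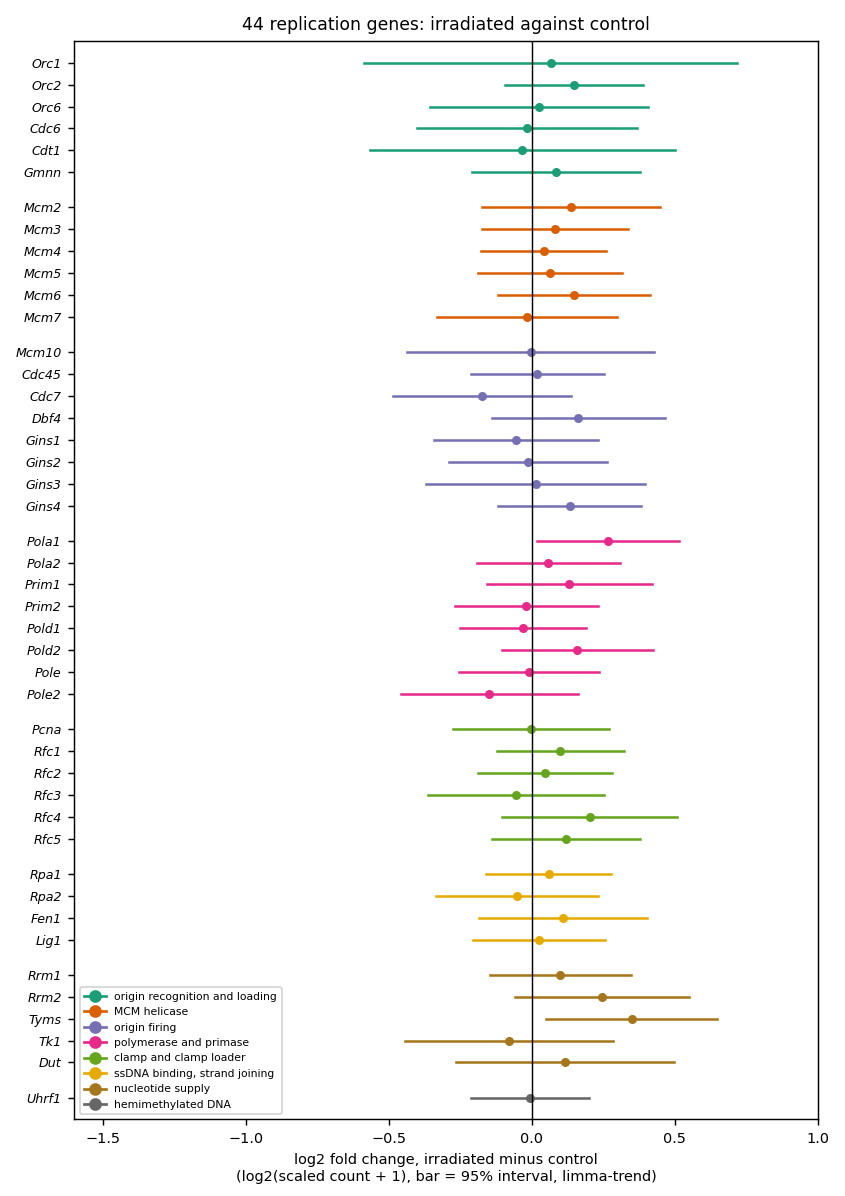
Log2 fold change (irradiated minus control, horizontal axis) of each of the 44 replication genes, ordered and coloured by role, with points for the limma-trend estimate and bars for its 95% interval. The points lie between -0.18 for *Cdc7* and 0.35 for *Tyms*, and 42 of the 44 bars cross 0. The bars are from the fit without the replicate block.

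In 4 of the 44 genes, *Orc2*, *Gins4*, *Pola1* and *Tyms*, all irradiated libraries lay above all control libraries, where 4.83% of all genes tested did. In 0 of the 44 all irradiated libraries lay below, where 4.01% of all genes did, and 8.83% of all genes had no overlap in either direction.

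Origin recognition and loading factors come first in the order of events. *Orc1*, the ORC subunit that rises and falls with the cell cycle, had scaled counts of 274, 281 and 533 in the irradiated libraries, against 241, 360.2 and 412 in the control libraries (log2 fold change 0.065, SE 0.29). Its level was the lowest of the 44, irradiated library 3 stood well above the other irradiated libraries, and the groups overlapped. *Orc2*, a stable core subunit of ORC, had 2911, 2864 and 3273 in the irradiated libraries, against 2493, 2834 and 2845 in the control libraries. All 3 irradiated libraries lay above the control libraries for *Orc2* (log2 fold change 0.15, SE 0.11), the nearest of them by a small margin. The annotated exons of *Orc2* overlap those of *Nif3l1* on the opposite strand over 1150 of 3857 bases. No source used here says whether counting used strand. *Orc6*, the smallest ORC subunit, stood at 1484 ± 298 in irradiated and 1453 ± 243 in control libraries (SD, n = 3 each, as in all later means).

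*Cdc6*, the ATPase that helps ORC load the helicase, had 1012, 958 and 1372 in the irradiated libraries, against 956, 1104 and 1305 in the control libraries. *Cdt1*, its partner in loading, had 1345, 1651 and 2566 in the irradiated libraries, against 1578, 1635 and 2367 in the control libraries. In both genes library 3 was the highest of its group, in irradiated and in control cells alike, and the group means differed by less than the spread inside either group (log2 fold change -0.017, SE 0.17 for *Cdc6*; log2 fold change -0.033, SE 0.24 for *Cdt1*). *Gmnn*, the gene of the Cdt1 inhibitor geminin, had 1045, 1051 and 1276 in the irradiated libraries, against 1097, 956 and 1123 in the control libraries (log2 fold change 0.084, SE 0.13). Per kb of exon, *Cdt1* stood to *Gmnn* at a ratio of 0.601, 0.733 and 0.938 in irradiated libraries 1, 2 and 3 and 0.671, 0.798 and 0.984 in control libraries 1, 2 and 3. The ratio was lower in the irradiated library in all 3 same-numbered pairs. The difference did not pass a two-sided exact permutation test over libraries (p = 0.7, where 3 against 3 cannot go below 0.1), and exact sign flips within pairs gave p = 0.25, the smallest that 3 pairs allow.

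The helicase genes were among the most abundant of the set. *Mcm2* had 5975, 7375 and 8463 in the irradiated libraries, against 6735, 5934 and 7045 in the control libraries (log2 fold change 0.14, SE 0.14). *Mcm3* had 6349, 6913 and 7581 in the irradiated libraries, against 7028, 5862 and 6823 in the control libraries (log2 fold change 0.081, SE 0.11). *Mcm4* had 5822, 6312 and 6327 in the irradiated libraries, against 6405, 5758 and 5780.4 in the control libraries (log2 fold change 0.042, SE 0.10). Within each of these genes the highest irradiated library exceeded the lowest one by less than 1.5-fold, and the groups overlapped. *Mcm5*, whose promoter is printed above, had 6777, 7453 and 8413 in the irradiated libraries, against 7487, 6655 and 7494 in the control libraries (log2 fold change 0.062, SE 0.11). *Mcm6*, the most abundant of the ring both per gene and per length, had 10138, 11346 and 13170.5 in the irradiated libraries, against 11137, 10025 and 10015 in the control libraries (log2 fold change 0.15, SE 0.12). *Mcm7* had 6109.9, 6572 and 8599 in the irradiated libraries, against 6782, 6722 and 7842 in the control libraries (log2 fold change -0.017, SE 0.14). For *Mcm2*, *Mcm3*, *Mcm5*, *Mcm6* and *Mcm7* irradiated library 3 was the highest of all 6 libraries, and for all of the ring irradiated library 1 was the lowest irradiated one.

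**Figure D2:**
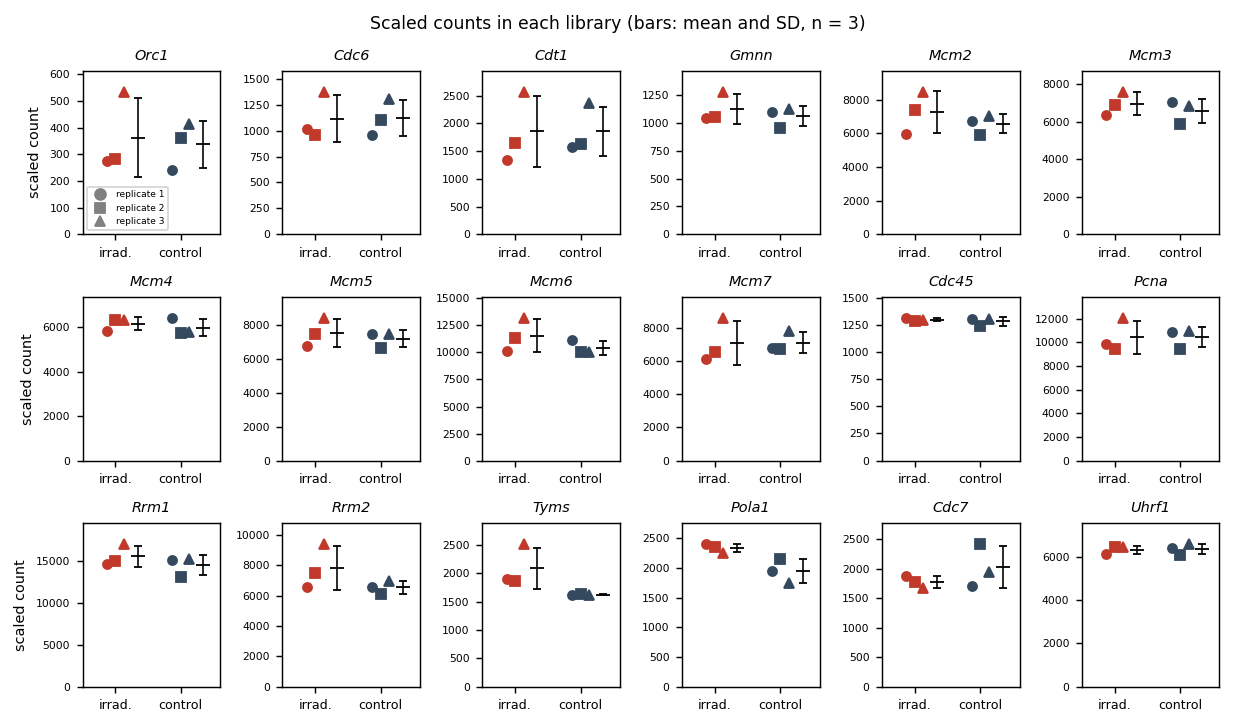
Scaled counts (vertical axes, from 0) of 18 replication genes in each library, irradiated on the left and control on the right of each panel, with the symbol giving the replicate number and the bar the mean and SD of 3 libraries. Irradiated library 3 is the highest point for *Cdt1*, *Mcm6* and *Rrm2*, while *Cdc45* stays between 1238 and 1311 in all 6 libraries.

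Because the ring holds its subunits in equal number, their transcript levels were also set side by side per kb of annotated exon. *Mcm6* stood highest, at 2476 ± 327 scaled counts per kb in irradiated and 2227 ± 138 in control libraries. *Mcm2* stood lowest, at 1045 ± 179 scaled counts per kb in irradiated and 945 ± 82.4 in control libraries. The order *Mcm6*, *Mcm5*, *Mcm3*, *Mcm4*, *Mcm7*, *Mcm2* was the same in both groups, with the highest level 2.37 times the lowest in irradiated and 2.36 times in control libraries. From *Mcm5* down to *Mcm7*, neighbours in this order differed by less than the larger SD of the pair, in either group. Among the GINS genes *Gins4* was highest, at 827 ± 34.5 scaled counts per kb in irradiated and 755 ± 37.1 in control libraries, and *Gins3* lowest, at 209 ± 28.0 scaled counts per kb in irradiated and 208 ± 36.6 in control libraries. Exon lengths are the union of all annotated exons, so a gene with long unused ends is placed too low.

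**Figure D3:**
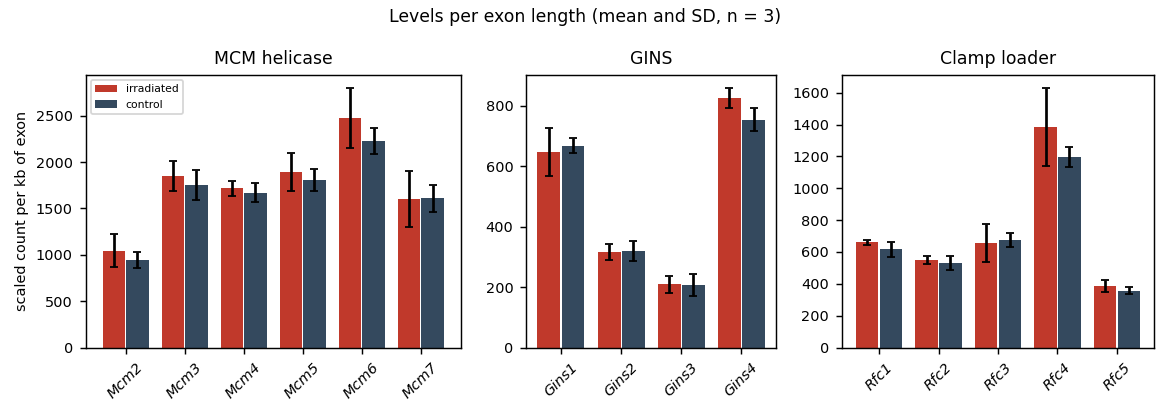
Mean level per kb of annotated exon (vertical axis, scaled counts per kb, bars with SD, n = 3) of the subunit genes of the MCM helicase, GINS and the clamp loader, irradiated left of control in each pair. *Mcm6* stands at 2476 in irradiated and 2227 in control libraries, and *Rfc4* is the highest of the loader genes.

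Genes of origin firing lay in no common direction, with 4 of 8 higher and 4 lower in the fit. *Cdc45*, the helicase cofactor, had 1311, 1285 and 1294 in the irradiated libraries, against 1300.0, 1238 and 1306 in the control libraries. The 6 values lie closer together than those of any other gene shown singly here (log2 fold change 0.018, SE 0.10). *Cdc7*, the kinase that triggers firing, had the lowest fold change of the 44, with 1882, 1774 and 1664 in the irradiated libraries, against 1713, 2410.3 and 1939 in the control libraries (log2 fold change -0.18, SE 0.14). Control library 2 was the highest for *Cdc7* and control library 1 lay among the irradiated ones. Its activator gene *Dbf4* stood the other way, at 3047 ± 512 in irradiated and 2703 ± 204 in control libraries (log2 fold change 0.16, SE 0.13).

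*Gins4* had 1107, 1073 and 1165 in the irradiated libraries, against 1069, 1016 and 969 in the control libraries, with no overlap of the groups (log2 fold change 0.13, SE 0.11). *Gins1* had 920.5, 900.1 and 1119 in the irradiated libraries, against 995, 1056 and 991 in the control libraries and overlapped (log2 fold change -0.056, SE 0.13). The other GINS genes had log2 fold changes of -0.013 for *Gins2* and 0.013 for *Gins3*. *Mcm10*, a factor that stabilises the assembled helicase, stood at 1771 ± 315 in irradiated and 1796 ± 444 in control libraries (log2 fold change -0.0041, SE 0.19). The annotated exons of *Gins2* overlap those of *Gse1* on the opposite strand over 2758 of 4097 bases, and no source used here says whether counting used strand, so its reads cannot be told from those of *Gse1*.

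Of the polymerase and primase genes 4 of 8 were higher and 4 lower in the fit. *Pola1*, the catalytic subunit of the polymerase that starts each new strand, had 2395, 2346 and 2257 in the irradiated libraries, against 1941, 2144 and 1753 in the control libraries. The irradiated libraries all lay above the control ones (log2 fold change 0.27, SE 0.11), with a 95% interval from 0.017 to 0.51, and the adjusted p of *Pola1* rounds to 1. Its partners in the same complex did not separate in this way. The accessory subunit gene *Pola2* stood at 1827 ± 98.7 in irradiated and 1759 ± 149 in control libraries. The primase genes *Prim1* and *Prim2* had log2 fold changes of 0.13 (SE 0.13) and -0.019 (SE 0.11).

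On the leading strand, *Pole2*, the second subunit of polymerase epsilon, had 722, 586 and 601 in the irradiated libraries, against 647, 725 and 738 in the control libraries (log2 fold change -0.15, SE 0.14). The groups overlapped, with irradiated library 1 close to control library 2. *Pole*, the catalytic subunit, stood at 2934 ± 182 in irradiated and 2959.7 ± 266 in control libraries. For polymerase delta, which extends the lagging strand, *Pold1* stood at 2516 ± 43.4 in irradiated and 2571 ± 142 in control libraries and *Pold2* at 2023 ± 159 in irradiated and 1814 ± 181 in control libraries (log2 fold change 0.16, SE 0.12).

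*Pcna*, the sliding clamp, had 9851, 9439 and 12033 in the irradiated libraries, against 10899, 9461 and 10913 in the control libraries (log2 fold change -0.0027, SE 0.12). Its group means, 10441 in irradiated and 10424 in control libraries, lay far closer together than the libraries of either group. An annotated copy, *Pcna-ps2*, shares 51.4% of the longest *Pcna* transcript at 95% identity or more and is listed at 2238 to 2857 scaled counts in irradiated and 2462 to 2853 in control libraries, so the division of reads between the copies is uncertain. The division is also uncertain for *Mcm7* (72.8% shared with *Gm5487*, whose level was not examined) and *Uhrf1* (44.3% shared with *Gm5648*). Smaller parts were shared by *Cdc6* (26.1% with *Gm9430*), *Rfc5* (24.7% with *Gm12870*), *Rrm2* (19.1% with *Gm48455*) and *Tyms* (17.3% with *Tyms-ps*). In the clamp loader, *Rfc4* had 1869, 1955 and 2558 in the irradiated libraries, against 1751, 1804 and 1943 in the control libraries (log2 fold change 0.20, SE 0.14). Irradiated library 3 stood well above the others for *Rfc4*, and irradiated library 1 below control library 3. The remaining loader genes had log2 fold changes of -0.055 for *Rfc3*, 0.045 for *Rfc2*, 0.10 for *Rfc1* and 0.12 for *Rfc5*.

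Genes of single-strand binding and strand joining had fold changes near 0. *Rpa1* and *Rpa2*, subunits of the protein that coats single strands, had log2 fold changes of 0.059 (SE 0.10) and -0.053 (SE 0.13). *Fen1*, the nuclease that trims Okazaki fragments, stood at 3159 ± 517 in irradiated and 2911 ± 183 in control libraries. *Lig1*, the ligase that joins them, stood at 5299 ± 367 in irradiated and 5211 ± 335 in control libraries (log2 fold change 0.024, SE 0.10). The exons of *Fen1*, 2422 bases long, overlap those of *Gm10143* and *Tmem258* on the opposite strand. The overlap is 2039 bases summed over both genes, so a base shared with both is counted for each.

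The largest positive fold change of the 44 was in nucleotide supply. *Tyms*, thymidylate synthase, which makes dTMP, had 1896, 1864 and 2514 in the irradiated libraries, against 1613, 1639.7 and 1625 in the control libraries. The control values lay close to one another and below every irradiated value, and irradiated library 3 stood above the other irradiated libraries. The log2 fold change was 0.35 (SE 0.13, limma adjusted p = 0.987; 0.430 with the replicate block). *Rrm2*, the S phase subunit of ribonucleotide reductase, had 6586, 7487 and 9366 in the irradiated libraries, against 6546, 6084 and 6959 in the control libraries (log2 fold change 0.25, SE 0.14). *Rrm1*, the large subunit of the same enzyme, had 14646, 14934 and 16934 in the irradiated libraries, against 15125, 13045 and 15248 in the control libraries (log2 fold change 0.10, SE 0.11). Both overlapped between the groups, *Rrm2* through irradiated library 1 alone.

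Per kb, *Rrm2* stood to *Rrm1* at 1.79, 1.99 and 2.20 in irradiated libraries 1, 2 and 3 and at 1.72, 1.85 and 1.81 in control libraries 1, 2 and 3 (two-sided exact permutation test, p = 0.3, smallest possible 0.1). It was higher in the irradiated library in all 3 pairs (exact sign flips, p = 0.25, the smallest possible). *Rrm2b*, which encodes a p53-induced alternative to the Rrm2 subunit, had 667, 624 and 549 in the irradiated libraries, against 529.8, 631 and 567 in the control libraries (log2 fold change 0.089, SE 0.14). The level of *Rrm2* per kb was 42.8 ± 12.1 times that of *Rrm2b* in irradiated and 37.6 ± 5.07 times in control libraries (exact permutation test, p = 0.7). Adjusted over the 3 ratios tested, chosen after the values were seen, each p was 0.7. *Tk1*, thymidine kinase, had a fold change of the other sign than *Tyms*, with 1539.7, 1519.5 and 2271 in the irradiated libraries, against 1758, 1788 and 1993 in the control libraries (log2 fold change -0.079, SE 0.16). Irradiated libraries 1 and 2 lay below, and irradiated library 3 above, every control library for *Tk1*. *Dut*, the enzyme that removes dUTP, stood at 3709.7 ± 898 in irradiated and 3382 ± 426 in control libraries. *Uhrf1*, which reads hemimethylated DNA behind the fork, had 6107, 6426 and 6423 in the irradiated libraries, against 6406, 6085 and 6562 in the control libraries (log2 fold change -0.0071, SE 0.092).

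Libraries of the 2 groups carry the same replicate numbers, and within those numbers the direction differed. In libraries numbered 1, irradiated was above control for 20 of the 44 genes, against 49.4% of all genes tested. In libraries numbered 2 it was above for 28, against 52.2%, and in libraries numbered 3 for 36, against 48.7%. Among genes tested with a mean in the range of the 44, the shares above were 49.6%, 57.7% and 47.0% in pairs 1, 2 and 3. Those of the 44 were 45.5%, 63.6% and 81.8%. The median log2 ratio over the 44 was -0.053, 0.049 and 0.15 in pairs 1, 2 and 3. The helicase genes show it most plainly. All 6 were lower in irradiated library 1 than in control library 1, 5 of 6 were higher in pair 2 and all 6 in pair 3. For *Mcm6* the log2 ratios were -0.14, 0.18 and 0.40, and for *Mcm7* they were -0.15, -0.033 and 0.13.

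Across all 3 pairs 9 of the 44 were higher after irradiation, where 15.4% of all genes tested were, and 0 were lower in all 3, where 14.5% were. The genes higher in every pair were *Orc2*, *Dbf4*, *Gins4*, *Pola1*, *Prim1*, *Rfc1*, *Rfc4*, *Rrm2* and *Tyms*. For *Tyms* the log2 ratios were 0.23, 0.19 and 0.63, and for *Pola1* they were 0.30, 0.13 and 0.36. *Cdc7* and *Pole2* were higher in pair 1 and lower in pairs 2 and 3, with ratios of 0.14, -0.44 and -0.22 for *Cdc7*.

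**Figure D4:**
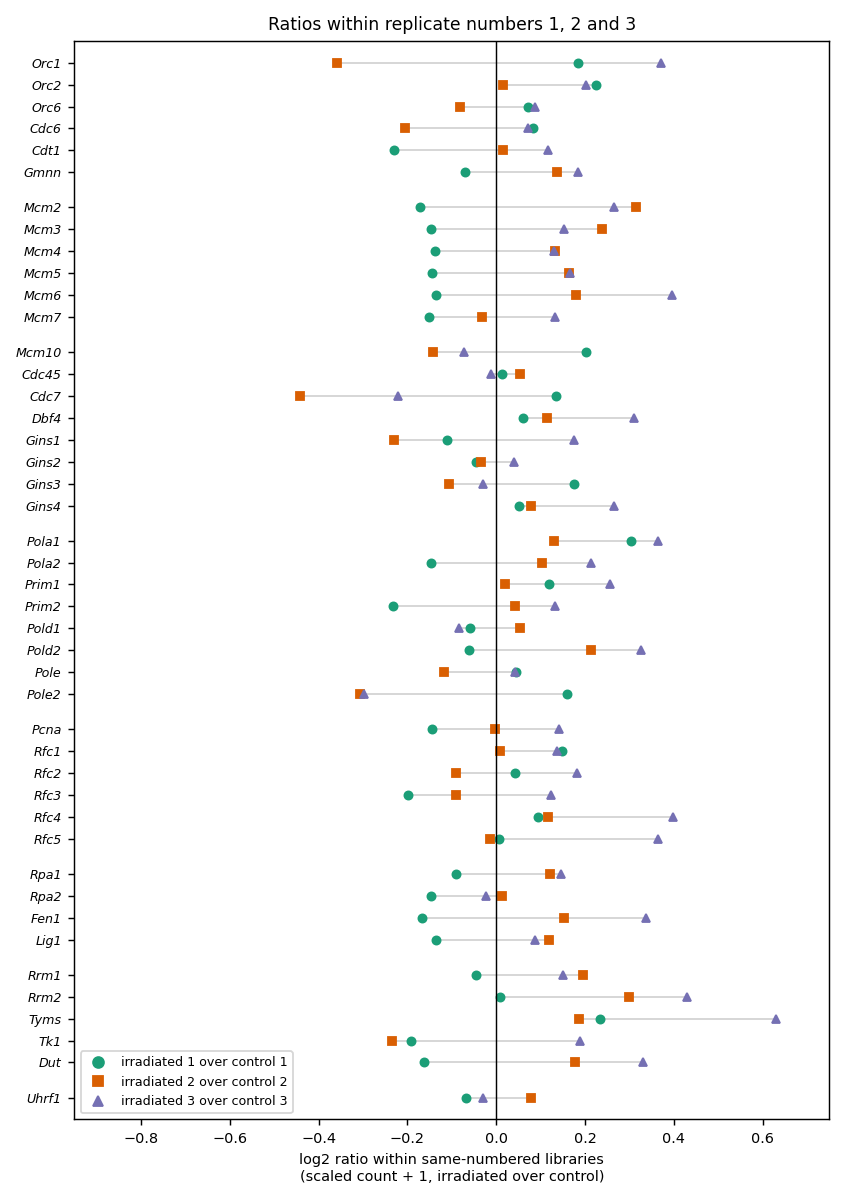
Log2 ratio of irradiated over control scaled count + 1 within same-numbered libraries (horizontal axis) for each of the 44 genes, with 1 symbol per replicate number. All 6 helicase genes *Mcm2* to *Mcm7* have a negative ratio in pair 1 and a positive one in pair 3, and 36 of the 44 genes are positive in pair 3.

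The highest library was most often the same one. Irradiated library 3 held the highest of the 6 values for 28 of the 44 genes (63.6%), against 22.6% of all genes tested. The summed scaled counts of the 44 genes were 150417, 157454 and 182575 in irradiated libraries 1, 2 and 3, and 157399.6, 147912 and 160691 in control libraries 1, 2 and 3. The groups overlapped, and the ratio of their means was 1.05. As a share of all reads the 44 genes took 0.466%, 0.490% and 0.583% in the irradiated libraries, against 0.482%, 0.476% and 0.505% in the control ones. Without irradiated library 3 the median log2 fold change of the 44 was -0.015, with 21 of 44 higher.

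Other gene lists also differed between libraries. Summed over 8 neural stem and radial glial genes, the level was 256588, 202556 and 166878 in irradiated libraries 1, 2 and 3, against 262096, 217742 and 225706 in the control libraries. Irradiated library 3 was thus the lowest for these genes, as it was for 8 Bergmann glia genes, whose sum ran from 239158 to 370571 in irradiated and from 307886 to 406014 in control libraries. The sum of 9 granule cell progenitor genes ran from 59947 to 67946 in irradiated and from 62795 to 66901 in control libraries. For 7 microglial genes it ran from 2069 to 3382 and from 1395 to 3398 in the same order, and for 6 endothelial genes from 2219 to 3468 and from 2798 to 3849.5. The 4 Y-linked genes summed to 3939, 5086 and 8911 in irradiated and to 1536, 2303 and 5095 in control libraries 1, 2 and 3, highest in library 3 of each group. With the Y-linked level as a covariate the median of the 44 was -0.032, with 19 of 44 higher. In that fit 0 of the 44 passed limma, where 0.168% of all genes did. *Mcm10* and *Cdt1* were lower in irradiated libraries there (limma adjusted p = 0.314 and 0.354), and *Pola1* was higher (limma adjusted p = 0.407). For 4 erythroid genes the sum was 317 to 390.5 in irradiated and 484 to 839.5 in control libraries, without overlap. For 7 interneuron genes it was 4759.9 to 6844 in irradiated and 5323 to 10939 in control libraries, and for 7 astrocyte genes 204762 to 298176 in irradiated and 278265 to 326577 in control libraries. For 7 oligodendrocyte genes it was 24977 to 42003 in irradiated and 24248 to 37291 in control libraries, and for 6 Purkinje cell genes 6114 to 7249 in irradiated and 4923 to 6665 in control libraries. The part of cell mixture in these values was not tested. No marker named in these lists had a library with 0 reads, and *Nes* itself had 13492, 11556 and 7461 in the irradiated libraries, against 10049, 8389 and 9101 in the control libraries.

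**Figure D5:**
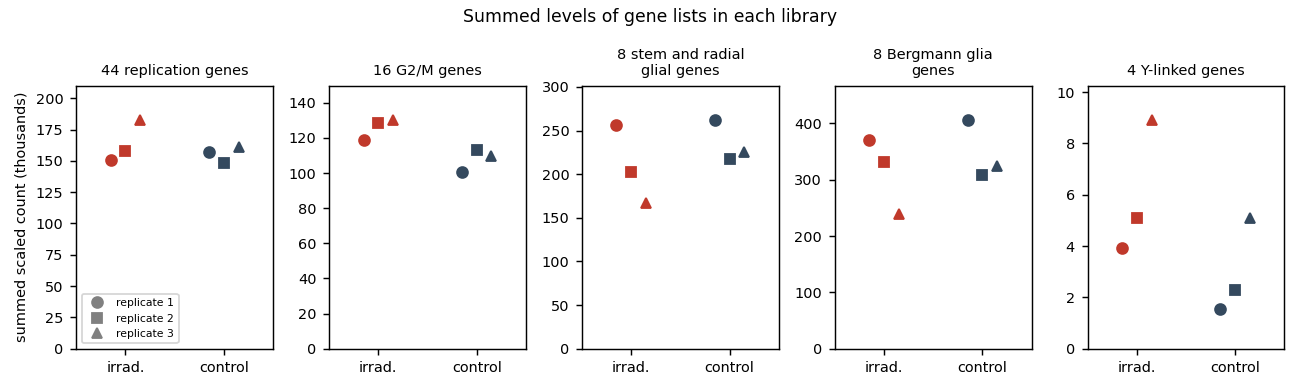
Summed scaled counts (divided by 1000, vertical axes from 0) of 5 gene lists in each library, irradiated left and control right, with the symbol giving the replicate number. Irradiated library 3 is highest for the 44 replication genes and for the Y-linked genes and lowest for the stem and Bergmann glia genes, while the G2/M sums of the groups do not overlap.

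A further 55 replication genes were listed by role, outside the 44. Of them 0 passed limma-trend over all genes, where 0.054% did, 37 were higher and 18 were lower in the fit, and the median log2 fold change was 0.038. Irradiated was above control for 37 of the 55 in pair 1, 23 in pair 2 and 36 in pair 3, where the 44 had 20, 28 and 36. At an unadjusted p below 0.05 there were 3, *Ccna2*, *Rnaseh2c* and *E2f1*, all higher in irradiated libraries, where 4.5% of all genes reached it and 2.42% in this direction. *E2f1*, an activator of the S phase programme, had 2289, 2983 and 3698 in the irradiated libraries, against 2208, 2305 and 2300.5 in the control libraries (log2 fold change 0.37, SE 0.16). Irradiated libraries 2 and 3 lay above all controls for *E2f1*, and irradiated library 1 lay among them. *Ccna2*, the cyclin A2 gene of S and G2 phase, had 12309, 13443 and 14781 in the irradiated libraries, against 11353, 11029 and 11123 in the control libraries (log2 fold change 0.27, SE 0.10). *Rnaseh2c*, a subunit of the enzyme that removes ribonucleotides from DNA, had 1169, 1116 and 1215 in the irradiated libraries, against 1001, 904 and 958 in the control libraries (log2 fold change 0.29, SE 0.11). *Top2a*, the topoisomerase that untangles copied DNA, had 27771, 29944 and 32719 in the irradiated libraries, against 25428, 25833 and 27218 in the control libraries (log2 fold change 0.20, SE 0.10). In *Ccna2*, *Rnaseh2c* and *Top2a*, 3 of the 55, the groups did not overlap, where 4.83% of all genes lay apart in this direction. By role, 9 of 13 genes of G1/S control were higher in the fit without covariates, where 49.4% of all genes were. With the Y-linked level as a covariate *E2f2*, *E2f3*, *E2f7*, *E2f8*, *Ccne1* and *Dtl* turned lower, while *E2f1*, *Ccne2* and *Ccna2* stayed higher. *Rbl1* turned from lower to higher there.

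Genes of the cell cycle phase that follows replication were also listed. All 16 of these G2/M genes were higher in the fit, where 49.4% of all genes were, with a median log2 fold change of 0.23. Of the 16, 0 passed limma-trend over all genes, where 0.054% did. At an unadjusted p below 0.05 there were 4, all higher, where 4.5% of all genes reached it and 2.42% in this direction. In 9 of the 16 all irradiated libraries lay above all control libraries, where 4.83% of all genes did. In all 3 pairs 13 were higher, where 15.4% of all genes were. *Top2a* is in this list and also among the 55. The sums of the 16 were 118865, 128543 and 130204 in irradiated and 100384, 112955 and 109947 in control libraries, without overlap. *Mki67*, the gene of the proliferation antigen Ki-67, had 21305, 25092 and 24448 in the irradiated libraries, against 15362, 21921 and 20088 in the control libraries (log2 fold change 0.32, SE 0.14). The difference between the G2/M and the replication genes was not tested.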

How the data were processed

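RNA-seq was available for 6 libraries, 3 irradiated and 3 control. The deposited signal is not coverage: each value is a gene's read count that the authors scaled with DESeq, with 1 added. HTSeq, DESeq and build mm10 are what the authors used, per the submitters' processing notes; no aligner or strandedness is given there. After 1 was subtracted every value was a whole multiple of 1 read within 0.01 reads, with size factors of 0.953 to 1.16. Depth was 30986269 to 31070520 reads in irradiated and 31130326 to 37067530 in control libraries, and genes with under 15 reads in all are not analysed here.

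Groups were compared by limma-trend, run with limma 3.58.1 in R 4.3.3, after log2 transformation with a pseudocount of 1, in 16674 genes with a mean of at least 10, adjusted over all of them, and called at 0.05. The procedure was also run on simulated data, with larger changes than those of the replication genes. That run cannot tell whether differences of their size would be detected. Deviations from group means correlated by 0.305, 0.151 and 0.451 across genes within replicate numbers 1, 2 and 3, and by -0.342 to 0.0503 between numbers. From this, and not from the labels, the numbers were taken to pair libraries. Deviations cancel within a group, so the correlations between numbers are not separate evidence. The Y-linked sum also rose from library 1 to library 3 in both groups. Whether the numbers mark a true pairing was not tested. The main fit did not use this pairing, so its SE, p and intervals are for unpaired groups. The replicate block, run as an alternative, left the log2 fold changes of the replication genes unchanged but not their p.

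Exon lengths and overlaps are from GENCODE M21 (GRCm38), copies from blastn 2.17.0 at 95% identity over 100 bases or more, and promoters from RefSeq (GRCm38.p6). The members and lists were chosen with earlier results of these data known. Values in every library are given for *Mcm2* to *Mcm7*, *Orc1*, *Cdc6*, *Cdt1*, *Gmnn*, *Cdc45*, *Pcna*, *Rrm1*, *Rrm2* and *Uhrf1*, for members past the threshold or without overlap, and for the 4 largest and 4 lowest fold changes. Outside the 44 they are given for genes called or without overlap, *Rrm2b*, *E2f1*, *Top2a*, *Cdkn1a*, *Mki67* and *Nes*; 1 gene that the rule named is not reported here. Promoters were to be printed for up to 4 members holding the motif, in a fixed order; windows that overlap an annotated exon were left out and *Pola1* was added after its values were seen.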

Additional observations from a re-analysis of the deposited data

How the results depend on the processing

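None of the 44 genes, and none of the 55 further genes, passed limma in any of the 13 alternative settings run, which were other scalings, filters and pseudocount, the replicate block, the Y-linked covariate and each library left out in turn. The lowest adjusted p of a member in them was 0.314, for *Mcm10* with the Y-linked covariate. The median log2 fold change of the 44 turned to -0.032 with the Y-linked covariate. It ran from -0.015 without irradiated library 3 to 0.10 without irradiated library 1, with 21 to 38 of the 44 higher over the 6 fits that leave out 1 library. The cause was not tested. The fitted sign of 28 of the 44 genes changed in at least 1 setting, and that of 16, *Tyms*, *Pola1*, *Orc2*, *Gins4* and *Mcm6* among them, in none. The number of all genes called was 9, against 25 with the replicate block, 28 with the Y-linked covariate, and 1 to 29 with 1 library left out (29 without irradiated library 1, 3 without irradiated library 2, 2 without control library 1, 1 without control library 2 and 3 without control library 3). The summed level of the 44 had an irradiated to control ratio of 1.05 under the authors', TMM and total read scaling. With TTTCGCGC and TTTGGCGC alone, 25% of the replication gene windows held a motif, against 1.45% of those of the genes tested. edgeR, with and without the replicate block, and DESeq2 had been planned and were not run. The widest interval was that of *Orc1*, the gene with the lowest counts of the 44. Sign flips within pairs, for the ratios between genes, were added after seeing the data.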

Other observations

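Several of the 55 further replication genes were highest in library 3 of both groups, as *Cdt1* was. The 3 regulators given here were picked from them after their values were seen. *Ticrr*, *Clspn*, *E2f2*, *E2f7* and *Ccne1* were among the others with this pattern, so it is not particular to the 3. *Dtl*, the substrate adaptor that marks Cdt1 for destruction, had 2549.9, 3282 and 5013 in the irradiated libraries, against 2874, 3454 and 3973 in the control libraries. *Fbxo5*, the gene of the anaphase-promoting complex inhibitor Emi1, had 1371, 1626 and 2612 in the irradiated libraries, against 1385, 1806 and 2410.3 in the control libraries. *E2f8*, which encodes a repressor of E2F target genes, had 1445, 1600.3 and 2309 in the irradiated libraries, against 1266, 1469 and 1929.7 in the control libraries. In each of these genes library 3 exceeded the next library of its group by more than the difference between the group means (0.03, -0.017 and 0.19 on the log2 scale for *Dtl*, *Fbxo5* and *E2f8*). These differences are from the fit without covariates. With the Y-linked level as a covariate they were -0.44, -0.63 and -0.28 in the same order (limma adjusted p = 0.511, 0.277 and 0.597).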
